A study of Mus musculus with 6 samples.

Results

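The 9 genes described here encode carriers that move lactate, pyruvate, ketone bodies, aromatic amino acids and carnitine across cell membranes: Slc16a1, Slc16a4, Slc16a7, Slc16a9, Slc16a10 and Slc16a13 of the proton-linked and facilitative Slc16 family, Slc5a8 and Slc5a12 of the sodium-coupled Slc5 family, and the carnitine carrier Slc22a5. They were chosen by gene symbol, and all 9 were found among the 46095 rows of the deposited count table. Of these, 8 passed the low-count filter and were tested among 15367 genes, while Slc16a13 was too low to be tested. RNA was sequenced from mouse kidney, with 3 libraries whose treatment label reads DHT (dihydrotestosterone, a potent androgen) and 3 whose treatment label reads control. The strain label names PCOS mouse and the background label C57BL/6 for both groups, so the control kidneys carry the label of polycystic ovary syndrome too, and the groups rest on the treatment label. The labels state no dose, duration or age. Nothing in the labels says that the 3 libraries of a group come from separate animals, so the p-values cover the variation among these libraries, which may be technical.

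In the kidney, filtered lactate, pyruvate and ketone bodies are taken back from the tubular fluid by the sodium-coupled monocarboxylate carriers Slc5a8 and Slc5a12 in the brush border of the proximal tubule, and pass on to the blood through proton-linked carriers of the Slc16 family. In the rodent kidney Slc5a12, the low-affinity carrier, is found from the early proximal tubule on, and Slc5a8, the high-affinity carrier, in its later, straight part. Filtered carnitine, which carries long-chain fatty acids into mitochondria, is recovered by Slc22a5 (OCTN2), whose loss in mouse and human causes systemic carnitine deficiency.

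Total counts ranged over libraries between 15.1 and 19.3, in units of 1e6. Of 10 androgen-responsive kidney genes, 8 were called higher in DHT and 0 lower with edgeR, against 1.38% and 1.46% over all genes tested. Kap and Odc1 were not called (edgeR adjusted p = 0.251 and 0.0841). DESeq2 called 9 of the 10 higher and limma-voom 5, against 854 and 154 genes higher over all genes. With 1 library left out, edgeR called 0 to 9 of the 10 higher, and 0 to 1224 genes in all. This list was chosen with earlier results of these data known, so its calls are no independent check of the treatment. Kap, the kidney androgen-regulated protein, had 22454, 5689 and 19886 counts per 1e6 (CPM) in DHT replicates 1, 2 and 3, against 1548, 7770 and 7502 CPM in control replicates 1, 2 and 3, with the groups overlapping. Slco1a1, an organic anion carrier, ran from 40.6 to 855 CPM in DHT and from 0 to 0.297 CPM in control, and Slc7a13, an amino acid carrier of the straight proximal tubule, from 117 to 739 CPM in DHT and from 0.369 to 1.50 CPM in control. DHT replicate 2 was the lowest DHT library for all 3. DHT replicate 2 also had the highest summed level of 8 macrophage and monocyte markers, with 648 CPM against 219 and 475 CPM in the other DHT libraries and 209 to 433 CPM in control. Of these markers Csf1r was not highest there, at 60.7 CPM against 71.6 and 90.7 CPM in control replicates 2 and 3. Endothelial markers summed to 698 CPM in DHT replicate 2, against 394 and 409 CPM in the other DHT libraries and 391 to 499 CPM in control. Its podocyte markers summed to 811 CPM, against 543 and 628 CPM in the other DHT libraries and 574 to 704 CPM in control. Its 5 red blood cell markers summed to 70.3 CPM, against 2.89 and 4.51 CPM in the other DHT libraries and 7.82 to 37.5 CPM in control. The 4 adrenal markers summed to 0.475 to 2.19 CPM in DHT and to 2.15, 2.80 and 8.81 CPM in control replicates 1, 2 and 3: Cyp11b1 and Cyp21a1 were at 0 counts in all 6 libraries, and Cyp11a1 had 6 and 128 counts in control replicates 2 and 3 and 0 in the other libraries. The 5 fat cell markers summed to 36.9, 116 and 30.3 CPM in DHT replicates 1, 2 and 3, against 30.3, 72.6 and 66.6 CPM in control replicates 1, 2 and 3. They did not move together. Fabp4, the only 1 that passed the low-count filter, ran from 30.3 to 116 CPM in DHT and from 30.3 to 65.1 CPM in control. Cfd had 0, 1 and 0 counts in DHT replicates 1, 2 and 3, against 0, 232 and 26 counts in control replicates 1, 2 and 3. Control replicate 3 was the highest library for the summed principal cell markers, with 964 CPM against 546 to 633 CPM in DHT and 465 and 471 CPM in the other controls. Scnn1g of this list was not highest there, at 86.0 CPM against 99.3 CPM in DHT replicate 1. The sum of thick ascending limb markers was highest in that library too. It was 14539 CPM there, against 6247 to 8008 CPM in DHT and 6597 and 9222 CPM in the other controls. Cldn16 of this list was not highest there, at 11.3 CPM against 13.3 CPM in control replicate 2. The part of these cells in the carriers' values was not tested. Markers of the proximal tubule, thick ascending limb, distal tubule, principal cells and intercalated cells were present. Early proximal tubule markers summed to 9004 to 11386 CPM in DHT and 9283 to 14122 CPM in control.

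The upstream sequences of the 3 carriers that passed the test below and of Slc5a8 are shown because these 4 had the largest changes among carriers whose groups did not overlap. RefSeq windows of 300 bases, from 250 before to 50 after the start, were given for 6 of the 9 genes (GRCm38.p6). The part before both the RefSeq and the GENCODE start is printed 5′ to 3′ on the gene's own strand, and capitals mark the E-box CACGTG, the motif bound by the clock factors among others.
Slc16a1, chr3:104638414-104638663, plus strand: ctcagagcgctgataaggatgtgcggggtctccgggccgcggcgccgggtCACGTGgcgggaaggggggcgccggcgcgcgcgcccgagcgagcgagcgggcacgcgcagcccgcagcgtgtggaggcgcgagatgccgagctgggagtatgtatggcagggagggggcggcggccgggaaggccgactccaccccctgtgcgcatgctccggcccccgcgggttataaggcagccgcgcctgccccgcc
Slc16a10, chr10:40142259-40142504, minus strand: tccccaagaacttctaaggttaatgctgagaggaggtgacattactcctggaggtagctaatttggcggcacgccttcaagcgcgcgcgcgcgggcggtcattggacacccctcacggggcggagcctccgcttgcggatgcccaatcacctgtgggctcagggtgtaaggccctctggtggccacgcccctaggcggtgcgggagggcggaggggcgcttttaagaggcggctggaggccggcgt
Slc16a9, chr10:70245026-70245099, plus strand: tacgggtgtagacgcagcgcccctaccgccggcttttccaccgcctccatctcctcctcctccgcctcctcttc
Slc5a8, chr10:88885742-88885991, plus strand: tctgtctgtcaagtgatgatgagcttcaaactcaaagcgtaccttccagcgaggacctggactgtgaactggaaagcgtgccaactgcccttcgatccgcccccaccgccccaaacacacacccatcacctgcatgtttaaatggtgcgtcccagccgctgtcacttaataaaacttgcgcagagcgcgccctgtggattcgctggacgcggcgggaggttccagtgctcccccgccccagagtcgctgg

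Both strands of the full windows were searched for 4 motifs: the E-box, the androgen receptor hexamer AGAACA, the full androgen element (AGAACA and TGTTCT, 3 bases apart, which thus contains the hexamer) and the PPAR element (AGGTCA repeated with 1 base between). The window of Slc16a1 held 1 E-box, which starts 200 bases before the RefSeq start, and 7.15% of all 32851 windows hold one. The window of Slc16a4 held 1 androgen receptor hexamer, on the opposite strand and starting 28 bases before the start, and 18.97% of all windows hold one. The full androgen element, which is also the glucocorticoid element, and the PPAR element were not found in the windows of the 6 genes. Of all windows, 0.00913% and 0.0396% hold them. The GC content of these windows was 73.7% for Slc16a1, 72.7% for Slc22a5, 70.7% for Slc16a9, 65.3% for Slc16a10, 60.7% for Slc5a8 and 49.3% for Slc16a4, against a median of 52.7% over all windows.

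Among the 8 carriers tested, Slc16a1 and Slc16a10 fell in DHT and Slc16a9 rose. Over all 15367 genes, 1.38% were called higher and 1.46% lower at a Benjamini-Hochberg adjusted p of 0.05 with edgeR's quasi-likelihood test, and among the carriers 1 was called higher and 2 lower. The groups did not overlap for 6 of the 8, with Slc16a9 and Slc5a8 higher in every DHT library and Slc16a1, Slc16a10, Slc16a4 and Slc16a7 lower in every DHT library than in any control library. Over all genes tested, 14.8% lay wholly above and 15.0% wholly below. The median log2 fold change of the 8 was -0.46, with a range of -1.77 to 1.45, against a median of 0.00304 over all genes tested. As these are whole kidneys, fewer cells of a type and less RNA per cell cannot be told apart.

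**Figure D1:**
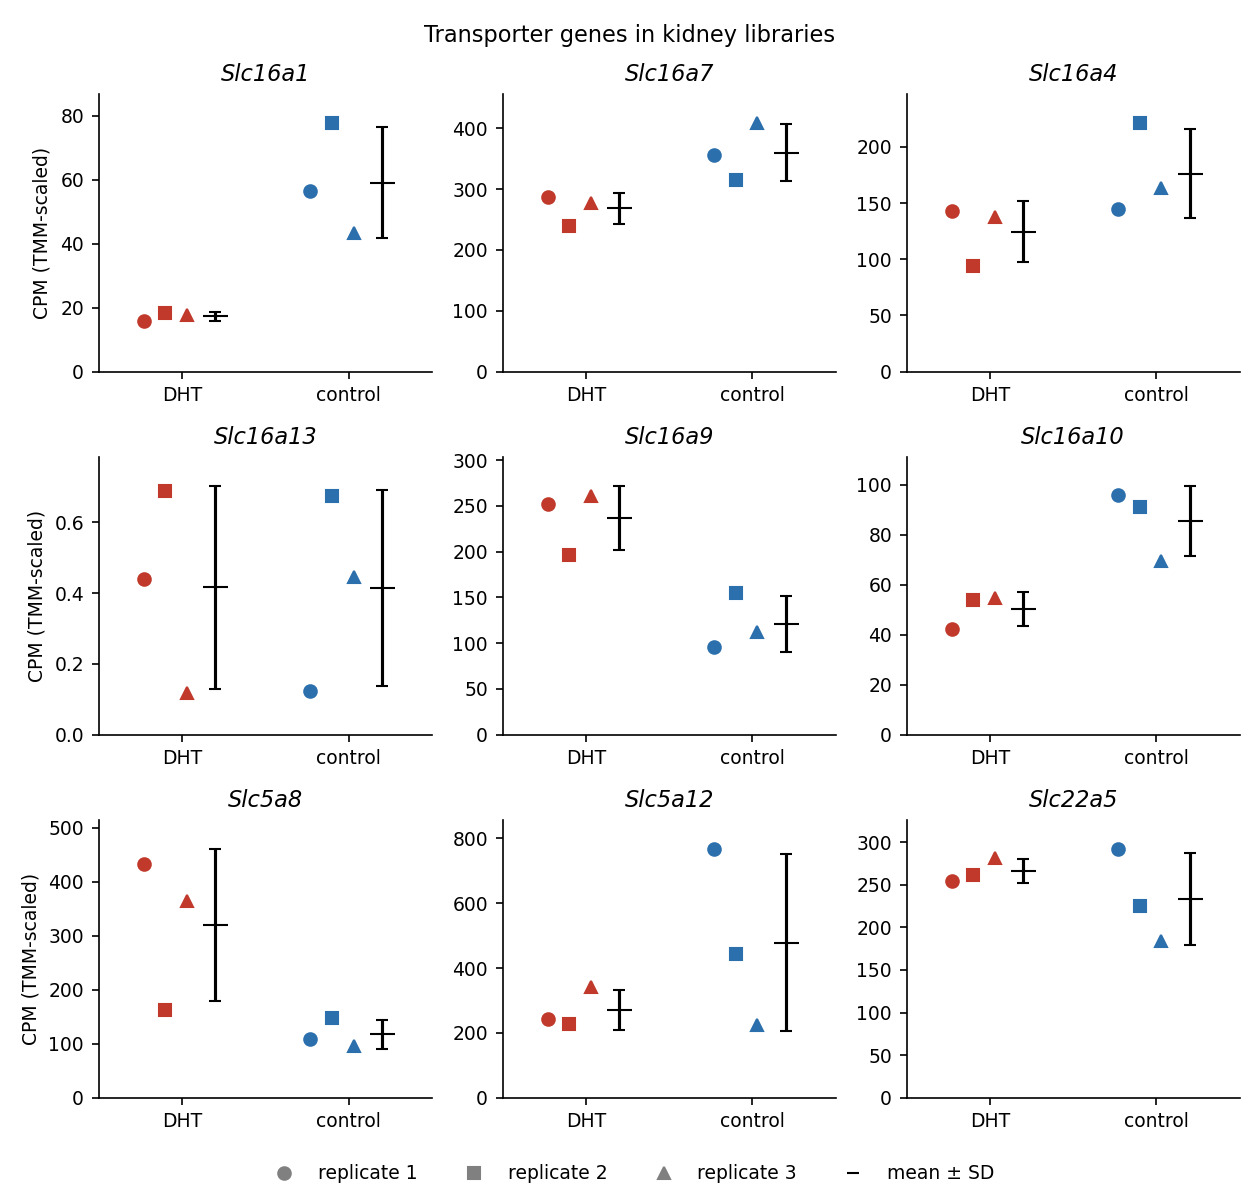
Each panel plots 1 carrier gene, with TMM-scaled CPM on the vertical axis and DHT left of control; symbols mark the replicate number and black bars the mean ± SD (n = 3 each). Slc16a1 lies at 15.8 to 18.5 CPM in DHT, below all control libraries at 43.3 to 77.6 CPM, while Slc16a9 and Slc5a8 lie higher in every DHT library than in any control library.

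Slc16a1 encodes MCT1, the widely expressed proton-linked carrier of lactate, pyruvate and ketone bodies (chromosome 3, 104638668 to 104658462, plus strand, GRCm38, 5 exons in its principal transcript). It had 15.8, 18.5 and 17.6 CPM in DHT replicates 1, 2 and 3, against 56.3, 77.6 and 43.3 CPM in control replicates 1, 2 and 3. The DHT libraries lay close together and far below the lowest control library, and DHT replicate 2 did not stand apart here. The means were 17.3 ± 1.38 CPM in DHT and 59.1 ± 17.3 CPM in control (SD, n = 3 each), a level 3.42-fold lower in DHT (log2 fold change -1.77 ± 0.21 SE, 95% interval -2.25 to -1.30, edgeR adjusted p = 0.0136). These values rest on 251 to 296 counts per library in DHT and 875 to 1496 in control. The call was lost with DHT replicate 1 (edgeR adjusted p = 0.0589) or DHT replicate 3 (0.0943) left out, where the log2 fold changes of Slc16a1 were -1.71 and -1.78. Over all genes, the fit without DHT replicate 1 called 19 of 15836 and the fit without DHT replicate 3 called 0 of 15794.

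Slc16a7 encodes MCT2, a carrier with a higher affinity for pyruvate and lactate than MCT1 (chromosome 10, 125219270 to 125389465, minus strand). It had 288, 239 and 278 CPM in DHT replicates 1, 2 and 3, against 356, 315 and 408 CPM in control replicates 1, 2 and 3. The groups did not overlap, yet the gap between the highest DHT and the lowest control library was small. The log2 fold change was -0.42 ± 0.15 SE with a 95% interval of -0.77 to -0.08, and Slc16a7 did not pass over all genes (edgeR adjusted p = 0.138). An antisense gene, Gm47862, shares up to 179 bases with its exons, and whether the counting used strand is not given.

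Slc16a4 encodes a family member whose substrates are not well established (chromosome 3, 107291230 to 107312115, plus strand). It had 143, 93.8 and 137 CPM in DHT replicates 1, 2 and 3, against 145, 221 and 163 CPM in control replicates 1, 2 and 3. DHT replicates 1 and 3 lay just under control replicate 1, so that the groups were parted by a narrow margin, and the lowest library was DHT replicate 2. The log2 fold change was -0.50 ± 0.21 SE (95% interval -0.98 to -0.02, edgeR adjusted p = 0.191).

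Slc16a13, an orphan carrier whose locus, shared with Slc16a11, has been linked to type 2 diabetes in human genetic studies, was barely detected. It had 7, 11 and 2 counts in DHT replicates 1, 2 and 3, against 2, 13 and 9 counts in control replicates 1, 2 and 3, which is under 1 CPM in every library. The groups overlapped throughout, and at this depth no difference was detectable.

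Slc16a9 encodes MCT9, which has been tied to carnitine transport in human studies (chromosome 10, 70245100 to 70285968, plus strand). It had 252, 196 and 261 CPM in DHT replicates 1, 2 and 3, against 95.7, 155 and 112 CPM in control replicates 1, 2 and 3. Every DHT library was above every control library, and the nearest pair was DHT replicate 2 and control replicate 2. The means were 236 ± 35.0 CPM in DHT and 121 ± 30.5 CPM in control (SD, n = 3 each), a level 1.96-fold higher in DHT (log2 fold change 0.97 ± 0.20 SE, 95% interval 0.52 to 1.42, edgeR adjusted p = 0.0440). The call on Slc16a9 was lost in 5 of the 6 fits that leave out a library. The adjusted p was 0.126 without DHT replicate 1, 0.161 without DHT replicate 3, and 0.0761, 0.0801 and 0.108 without control replicate 1, 2 and 3. Without DHT replicate 2 it was 0.0194. Over all genes, the fits without DHT replicate 1, 2 and 3 called 19, 1224 and 0. Those without control replicate 1, 2 and 3 called 366, 7 and 89, against 437 with all 6 libraries. Exons of Gm7097 and Gm9877 on the opposite strand overlap those of Slc16a9, by up to 344 bases per exon, and whether the counting kept the strands apart is not given.

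Slc16a10 encodes TAT1, a facilitative carrier through which aromatic amino acids leave the tubule cell at its blood side and which also carries thyroid hormone (chromosome 10, 40033532 to 40142258, minus strand). It had 42.5, 53.8 and 54.5 CPM in DHT replicates 1, 2 and 3, against 95.7, 90.9 and 69.4 CPM in control replicates 1, 2 and 3. Control replicate 3 was the lowest control library and still above all DHT libraries. The means were 50.3 ± 6.76 CPM in DHT and 85.4 ± 14.0 CPM in control (SD, n = 3 each), a level 1.70-fold lower in DHT (log2 fold change -0.76 ± 0.16 SE, 95% interval -1.12 to -0.41, edgeR adjusted p = 0.0443). The call on Slc16a10 was lost with limma-voom (adjusted p = 0.0535) and with a library left out: 0.132 for DHT replicate 1, 0.137 for DHT replicate 3, 0.0789 for control replicate 1 and 0.150 for control replicate 2. Over all genes, limma-voom called 321, against 437 with edgeR. The fits that left out these libraries called 19, 0, 366 and 7 genes, in the same order.

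Slc5a8 encodes SMCT1, the high-affinity sodium-coupled carrier of lactate, pyruvate and short-chain fatty acids (chromosome 10, 88885992 to 88929515, plus strand). It had 433, 163 and 364 CPM in DHT replicates 1, 2 and 3, against 108, 147 and 96.5 CPM in control replicates 1, 2 and 3. DHT replicates 1 and 3 were far above the controls, and DHT replicate 2 was just above control replicate 2. The means were 320 ± 140 CPM in DHT and 117 ± 26.5 CPM in control (SD, n = 3 each). The log2 fold change was 1.45 ± 0.36 SE with a 95% interval of 0.62 to 2.28, and Slc5a8 did not pass over all genes (edgeR adjusted p = 0.0696). It passed without DHT replicate 2 (edgeR log2 fold change 1.76, adjusted p = 0.00281), a fit that called 4.72% of 15772 genes higher, and with DESeq2 (adjusted p = 0.000237), which called 5.67% of 15062 genes higher. The 8 markers of the straight proximal tubule summed to 4588, 817 and 3673 CPM in DHT replicates 1, 2 and 3, against 659, 3064 and 2461 CPM in control replicates 1, 2 and 3. DHT replicate 2 was thus the lowest DHT library in both. Across the groups the orders differed: control replicates 2 and 3 had higher marker sums than DHT replicate 2 and lower Slc5a8. The markers did not move together. With edgeR 1 of 8, the androgen-responsive Slc7a13, was called higher and 0 lower (1.38% and 1.46% over all genes). Log2 fold changes were 9.10 for Slc7a13, 6.02 for Acsm3, 3.02 for Cyp7b1 and 1.70 for Atp11a, against -2.13 for Slc22a7, -1.49 for Aadat, -1.02 for Slc22a13 and -0.16 for Slc5a10. The part of segment composition in the Slc5a8 values was not tested.

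Slc5a12 encodes SMCT2, the low-affinity sodium-coupled carrier (chromosome 2, 110597298 to 110647779, plus strand). It had 241, 229 and 341 CPM in DHT replicates 1, 2 and 3, against 766, 443 and 225 CPM in control replicates 1, 2 and 3. The controls spread widely, and control replicate 3 lay below all DHT libraries. The means were 270 ± 61.3 CPM in DHT and 478 ± 272 CPM in control (SD, n = 3 each). Its log2 fold change of -0.82 ± 0.41 SE had a 95% interval of -1.80 to 0.15 (edgeR adjusted p = 0.274). The estimate for Slc5a12 depended on single controls: leaving out control replicate 1 gave -0.31 on the log2 scale (edgeR adjusted p = 0.609), and leaving out control replicate 3 gave -1.17 (adjusted p = 0.0946). The 8 early proximal tubule markers summed to 9619, 9004 and 11386 CPM in DHT replicates 1, 2 and 3, against 14122, 12365 and 9283 CPM in control replicates 1, 2 and 3. With edgeR 0 of 8 were called, against 1.38% higher and 1.46% lower over all genes. The libraries came in the same order by the marker sum as by Slc5a12, except that control replicate 3 and DHT replicate 2 changed places at the low end. The markers did not move together: log2 fold changes ran from -1.40 for Gatm and -0.81 for Slc5a2 to 0.27 for Hnf4a. Slc34a1, the highest of the 8 in every library, had a log2 fold change of -0.0045. The part of these cells in the Slc5a12 values was not tested.

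**Figure D2:**
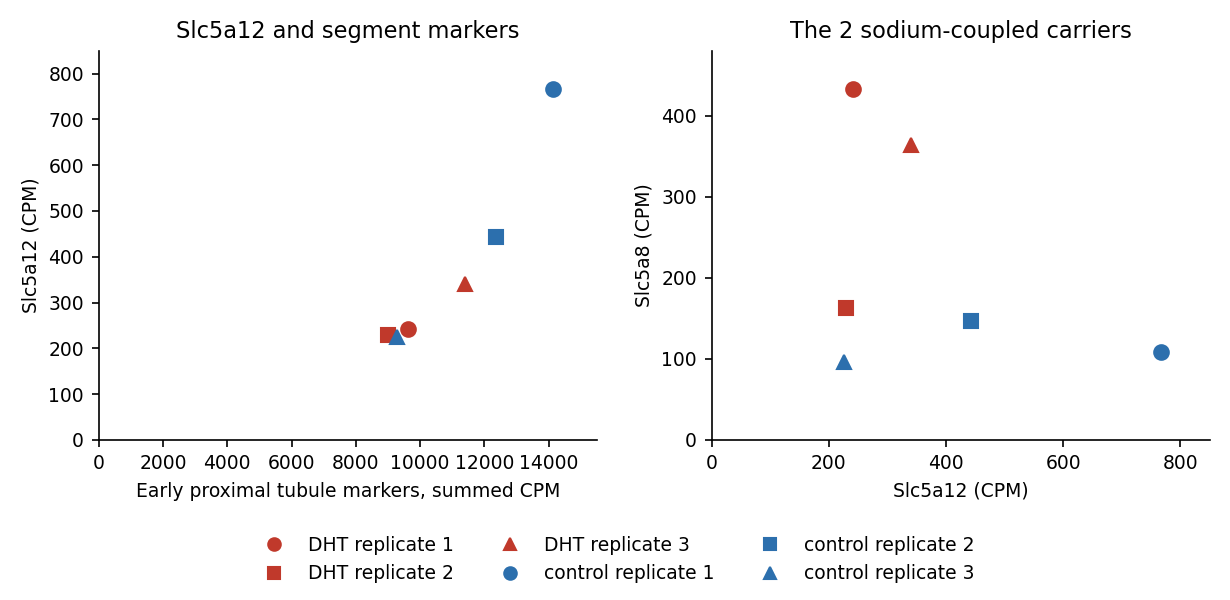
The left panel plots Slc5a12 CPM against the summed CPM of the 8 early proximal tubule markers, and the right panel Slc5a8 CPM against Slc5a12 CPM, with 1 point per library, DHT in red and control in blue. Control replicate 1 is highest on both axes of the left panel, at 14122 and 766 CPM, and in the right panel DHT replicates 1 and 3 stand apart at 433 and 364 CPM of Slc5a8.

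Set per kb of exon, the summed level of both sodium-coupled carriers overlapped between the groups. It was 141, 86.9 and 152 CPM per kb in DHT replicates 1, 2 and 3, against 209, 137 and 73.6 CPM per kb in control replicates 1, 2 and 3. Slc5a8 made up 57.7%, 35.2% and 44.8% of this sum in DHT replicates 1, 2 and 3, against 9.71%, 20.2% and 24.6% in control replicates 1, 2 and 3. Its share was higher in every DHT library than in any control library, and this quantity was chosen after the values were seen and has no test.

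Slc22a5 encodes OCTN2 (chromosome 11, 53864542 to 53891660, minus strand). It had 255, 261 and 282 CPM in DHT replicates 1, 2 and 3, against 292, 225 and 184 CPM in control replicates 1, 2 and 3. The DHT libraries lay within the spread of the controls. The means were 266 ± 14.0 CPM in DHT and 233 ± 54.5 CPM in control (SD, n = 3 each). Its log2 fold change of 0.19 ± 0.18 SE did not pass (edgeR adjusted p = 0.550), and the 95% interval ran from -0.22 to 0.59. A stretch of 831 bases, 27.1% of its principal transcript, is 98.3% identical to the related carnitine carrier Slc22a21, which had 3.52 to 4.32 CPM in DHT and 4.16 to 6.02 CPM in control. A stretch of 373 bases, 12.2% of the transcript, is 93.6% identical to Slc22a4, which had 63.6 to 76.4 CPM in DHT and 52.8 to 58.1 CPM in control. Whether reads were split among the 3 genes was not tested.

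**Figure D3:**
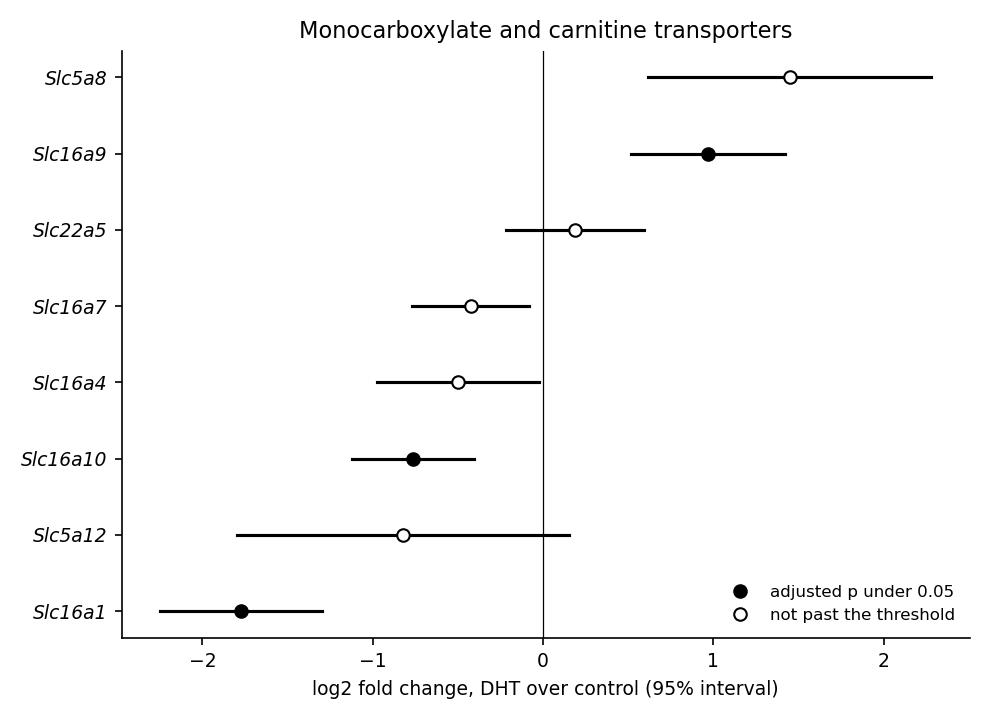
Points give the log2 fold change of DHT over control and lines its 95% interval from edgeR's quasi-likelihood fit (3 libraries per group) for the 8 tested carriers; filled points passed an adjusted p of 0.05. Slc16a1 at -1.77, Slc16a10 at -0.76 and Slc16a9 at 0.97 are the filled points.

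Levels between genes were compared as CPM per kb of union exon length. In DHT the order was Slc22a5 at 86.6 ± 4.57, Slc5a12 at 66.6 ± 15.1, Slc16a9 at 61.1 ± 9.05, Slc5a8 at 60.0 ± 26.3, Slc16a4 at 32.1 ± 6.92, Slc16a7 at 22.7 ± 2.15, Slc16a10 at 6.83 ± 0.919, Slc16a1 at 3.90 ± 0.311 and Slc16a13 at 0.160 ± 0.110 CPM per kb (SD, n = 3). In control the order was Slc5a12 at 118 ± 67.0, Slc22a5 at 76.0 ± 17.8, Slc16a4 at 45.4 ± 10.3, Slc16a9 at 31.3 ± 7.88, Slc16a7 at 30.4 ± 3.94, Slc5a8 at 22.0 ± 4.96, Slc16a1 at 13.3 ± 3.91, Slc16a10 at 11.6 ± 1.91 and Slc16a13 at 0.159 ± 0.107 CPM per kb (SD, n = 3). In DHT each of the first 6 overlapped with its neighbour in the order, whereas Slc16a7 and Slc16a10, Slc16a10 and Slc16a1, and Slc16a1 and Slc16a13 did not overlap. In control the neighbours that did not overlap were Slc22a5 and Slc16a4, Slc5a8 and Slc16a1, and Slc16a10 and Slc16a13. With the length of the principal transcript in place of the union of exons, the DHT order was the same, and in control Slc16a4 moved up to the second place with 78.4 CPM per kb, Slc16a7 passed Slc16a9, and Slc16a10 passed Slc16a1.

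**Figure D4:**
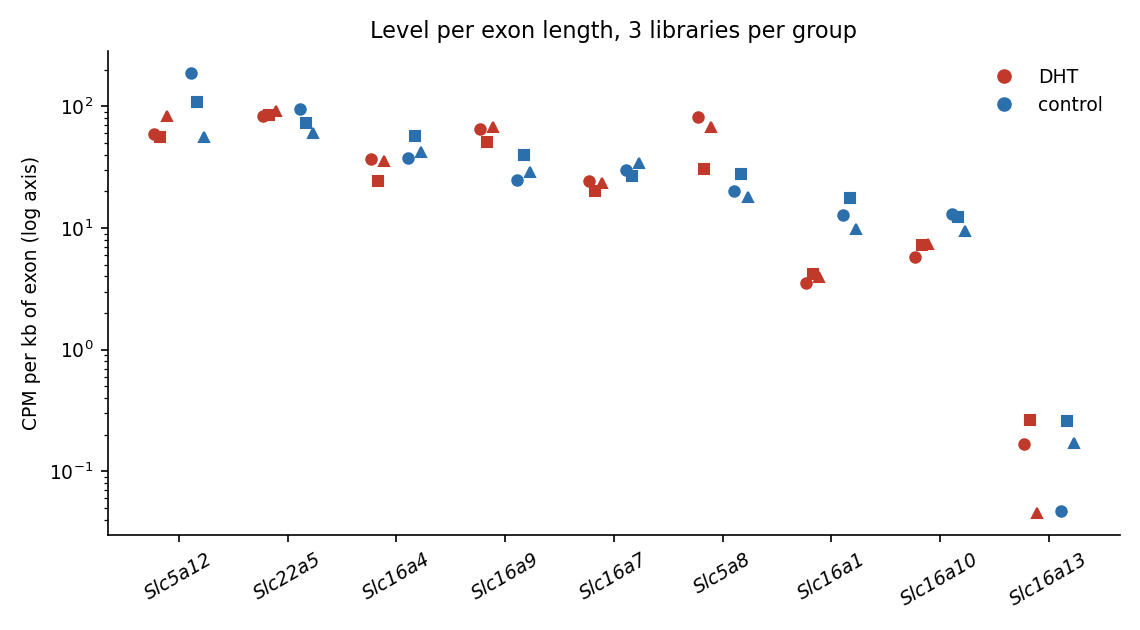
The vertical axis, on a log scale, gives CPM per kb of union exon length for each carrier, with 1 point per library, DHT in red left of control in blue and genes ordered by their control mean. Slc16a1 and Slc16a10, at 3.90 and 6.83 CPM per kb in DHT against 13.3 and 11.6 in control, are the lowest carriers apart from Slc16a13.

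The other 8 genes of the Slc16 family held 0 calls among 6 tested with edgeR, where 0 had an unadjusted p under 0.05, a state found in 23.9% of all 15367 genes; DESeq2 and limma-voom also called 0. Their median log2 fold change was -0.06. Slc16a6, a carrier linked to ketone body export in zebrafish liver, ran from 15.6 to 21.0 CPM in DHT and from 19.1 to 35.3 CPM in control (log2 fold change -0.53 ± 0.25 SE, edgeR adjusted p = 0.236), and its exons share up to 1052 bases with exons of other genes. Slc16a14, an orphan member, had 39.2, 19.0 and 37.4 CPM in DHT replicates 1, 2 and 3, against 110, 54.0 and 28.1 CPM in control replicates 1, 2 and 3, with the groups overlapping (edgeR adjusted p = 0.308). Slc16a3, the lactate exporter MCT4 of glycolytic cells, had 0.817, 3.44 and 0.771 CPM in DHT replicates 1, 2 and 3, against 0.369, 0.467 and 1.58 CPM in control replicates 1, 2 and 3 (edgeR adjusted p = 0.445). Its highest library in each group, DHT replicate 2 and control replicate 3, was also the highest of its group for the summed macrophage and monocyte markers. The same libraries were highest for the endothelial sum, at 698 and 499 CPM. DHT replicate 3 had a macrophage and monocyte sum of 475 CPM against 219 CPM in DHT replicate 1, and yet the lower Slc16a3. These Slc16a3 values rest on 6 to 55 counts per library, and the part of these cells in them was not tested.

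The proteins that carry or anchor these transporters held 0 calls among 8 tested with edgeR, 1 with an unadjusted p under 0.05 (23.9% over all genes), 1 higher call with DESeq2 (5.67% over all genes) and 0 with limma-voom. Their median log2 fold change was 0.14. Bsg, or basigin, the chaperone that MCT1 needs to reach the membrane, had 494, 451 and 613 CPM in DHT replicates 1, 2 and 3, against 407, 479 and 514 CPM in control replicates 1, 2 and 3, and overlapped (edgeR adjusted p = 0.616). Emb, or embigin, the partner that MCT2 prefers, had a log2 fold change of 0.14 ± 0.11 SE (edgeR adjusted p = 0.464). Slc9a3r1, or NHERF1, a scaffold of the brush border, had 336, 254 and 429 CPM in DHT replicates 1, 2 and 3, against 197, 223 and 203 CPM in control replicates 1, 2 and 3. It lay higher in every DHT library and did not pass over all genes (log2 fold change 0.71 ± 0.19 SE, edgeR adjusted p = 0.0766). Pdzk1, a scaffold that binds OCTN2, and Slc9a3r2, a relative of NHERF1, had log2 fold changes of 0.28 ± 0.21 and 0.29 ± 0.16 SE (edgeR adjusted p = 0.453 and 0.302).

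Among 17 genes of lactate, pyruvate and ketone body metabolism, 2 rose and 0 fell with edgeR (1.38% and 1.46% over all genes). Of the 17, 8 had an unadjusted p under 0.05 (23.9% over all genes), and the median log2 fold change was 0.35. DESeq2 called 5 higher (5.67% over all genes) and 0 lower. With limma-voom 1 was called higher and 0 lower, against 154 and 167 of all 15367 genes. Ldhd, the mitochondrial D-lactate dehydrogenase, had 889, 419 and 693 CPM in DHT replicates 1, 2 and 3, against 201, 307 and 264 CPM in control replicates 1, 2 and 3 (log2 fold change 1.37 ± 0.28 SE, edgeR adjusted p = 0.0465). Aacs, which activates acetoacetate in the cytosol for lipid synthesis, had 236, 106 and 242 CPM in DHT replicates 1, 2 and 3, against 30.9, 50.4 and 45.6 CPM in control replicates 1, 2 and 3 (2.20 ± 0.34, adjusted p = 0.0343). Both were lowest in DHT replicate 2 among the DHT libraries, and still above the controls there. Acat1, the mitochondrial acetoacetyl-CoA thiolase, had 944, 604 and 864 CPM in DHT replicates 1, 2 and 3, against 447, 443 and 446 CPM in control replicates 1, 2 and 3, and missed the threshold (edgeR adjusted p = 0.0515). Ldha, the lactate dehydrogenase subunit of glycolytic tissue, and Bdh2, a short-chain dehydrogenase of the cytosol, had log2 fold changes of 0.47 ± 0.13 and 0.54 ± 0.17 SE and did not pass (edgeR adjusted p = 0.0844 and 0.104). The list held 0 calls with edgeR when DHT replicate 1, DHT replicate 3 or any 1 control was left out, and 4 higher and 1 lower when DHT replicate 2 was. The fit without DHT replicate 2 called 745 genes higher and 479 lower among 15772. The fits without DHT replicate 1 and 3 called 19 and 0 genes in all. Those without control replicate 1, 2 and 3 called 366, 7 and 89.

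Carnitine synthesis enzymes, other carnitine carriers and carnitine acyltransferases held 0 calls among 11 tested of 13 with edgeR, 6 with an unadjusted p under 0.05 (23.9% over all genes), 4 higher calls with DESeq2 (5.67% over all genes) and 0 with limma-voom. Their median log2 fold change was 0.39. Aldh9a1, the aldehyde dehydrogenase of carnitine synthesis, had 525, 507 and 564 CPM in DHT replicates 1, 2 and 3, against 348, 399 and 328 CPM in control replicates 1, 2 and 3 (log2 fold change 0.57 ± 0.14 SE, edgeR adjusted p = 0.0654). Cpt2, the inner acyltransferase of the mitochondrial shuttle, Slc25a20, its carnitine-acylcarnitine exchanger, and Slc22a4, the OCTN1 carrier, also lay higher in every DHT library, with log2 fold changes of 0.51 ± 0.13, 0.39 ± 0.11 and 0.36 ± 0.11 SE. None of these 3 passed (edgeR adjusted p = 0.0693, 0.0774 and 0.108). Bbox1, the last enzyme of carnitine synthesis, was low, at 1.42 to 3.38 CPM in DHT and 1.83 to 3.14 CPM in control.

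Of 13 genes of aromatic amino acid and thyroid hormone transport and breakdown, 11 were tested with edgeR. Of these, 0 rose and 2 fell (1.38% and 1.46% over all genes), and 5 had an unadjusted p under 0.05 (23.9% over all genes). The median log2 fold change was -0.30. DESeq2 called 1 higher and 4 lower, against 5.67% and 5.18% over all genes. Dio1, the deiodinase that makes active thyroid hormone, had 14.7, 31.4 and 20.9 CPM in DHT replicates 1, 2 and 3, against 106, 89.9 and 68.2 CPM in control replicates 1, 2 and 3 (log2 fold change -1.98 ± 0.29 SE, edgeR adjusted p = 0.0252). Slc7a8, the exchanger LAT2 for neutral amino acids at the blood side of the tubule cell, had 116, 183 and 181 CPM in DHT replicates 1, 2 and 3, against 499, 443 and 301 CPM in control replicates 1, 2 and 3 (-1.37 ± 0.24, adjusted p = 0.0345). Its partner chain Slc3a2 and the neutral amino acid carrier Slc43a2 lay lower in every DHT library and did not pass (log2 fold changes -0.68 ± 0.21 and -0.54 ± 0.14 SE, edgeR adjusted p = 0.105 and 0.0722). The tyrosine breakdown genes Gstz1 and Fah had log2 fold changes of 0.55 ± 0.14 and 0.40 ± 0.20 SE (edgeR adjusted p = 0.0692 and 0.264). The list held 0 calls with edgeR when either DHT replicate 1 or 3 or control replicate 2 was left out, and 1 when control replicate 3 was. Over all genes, these fits called 19, 0, 7 and 89, in the same order.

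The genes whose log2 CPM over the 6 libraries was most like that of each called carrier were taken from all 15367 tested, and with so many genes and 2 groups such closeness is no test. For Slc16a1 they included Repin1 and Slc5a9 (Pearson r = 0.996 and 0.994 over 6 libraries). For Slc16a9 they were Cmas, Fam169b and Wbscr16 (r = 0.998, 0.996 and 0.996). For Slc16a10 they were Slc7a8, Ndrg1 and Disc1 (r = 0.998, 0.998 and 0.997).

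**Figure D5:**
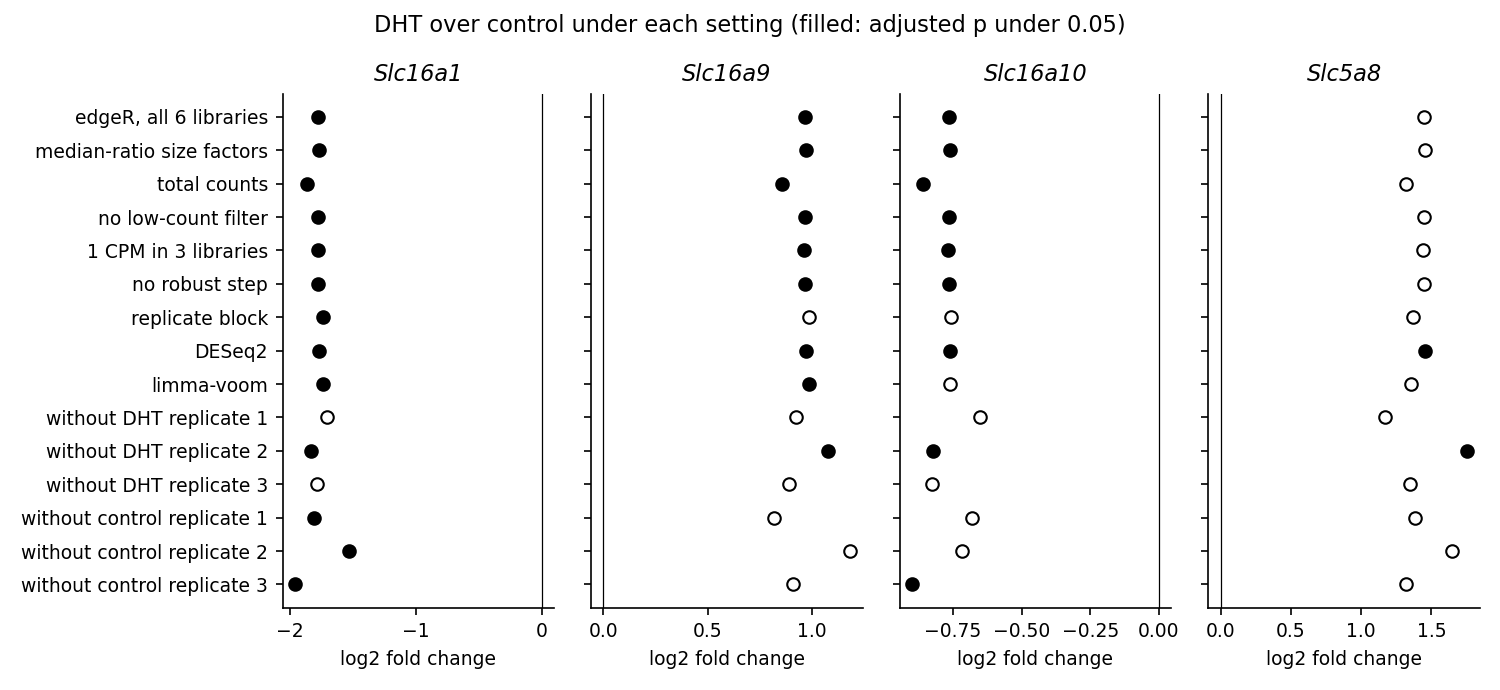
Each panel plots the log2 fold change of DHT over control for 1 carrier under edgeR with all 6 libraries and 14 other settings, with filled points where the adjusted p was under 0.05. Slc16a1 is filled in 12 of the 14 other settings, Slc16a9 and Slc16a10 in 8 each and Slc5a8 in 2, and no point of these 4 genes crosses 0.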

How the data were processed

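RNA was extracted with Trizol and sequenced as mRNA libraries, per the labels' protocols. HISAT2 2.0 and mm10 are named in the submitters' processing notes; no source here names the counting tool, annotation or strand setting. The authors deposited raw counts, whole numbers by symbol with no normalization, and column names equal sample titles. The fit used edgeR 4.0.16 (R 4.3.3): filterByExpr (minimum count 10, total 15), TMM scaling, and a robust quasi-likelihood fit on the group, with Benjamini-Hochberg adjustment over 15367 genes at 0.05, tested on simulated data. Each SE was derived from the F statistic. DESeq2 1.42.0 and limma 3.58.1 (voom) were alternatives. Gene models came from GENCODE M21 (GRCm38), promoter windows from RefSeq (GRCm38.p6), and near-identical transcripts from BLAST 2.17.0+. Libraries of 1 group differed by more than sampling noise. Gene lists and members were chosen with earlier results of these data known. Named genes were all 9 carriers, the called members of each list with up to 4 more by smallest p, and the 3 most correlated genes of the 3 carriers with the smallest p. Exceptions, named after their values were seen, were Bsg, Bbox1, Slc22a21, Bdh1 and single cell type markers. Some genes met by the rule are not reported here.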

Additional observations from a re-analysis of the deposited data

How the results depend on the processing

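Directions of the 8 tested carriers held in all 14 alternatives. The number of genes called moved to 852 with no low-count filter, 1634 with DESeq2 and 85 with the replicate block, against 437, and ran from 0 to 1224 when 1 library was left out. It was 0 without DHT replicate 3, where 2763 genes had an unadjusted p under 0.05 with edgeR. Carriers called higher were 2 with DESeq2 (Slc5a8 added), 0 with the replicate block and 0 to 2 with 1 library left out. Carriers called lower were 1 with limma-voom, 1 with the replicate block and 0 to 2 with 1 library left out; 0 were called without DHT replicate 1 or 3. Without control replicate 1, 2 or 3 those called lower were 1, 1 and 2, and those called higher 0. The replicate numbers share no stated source, and same-numbered libraries had correlations of 0.0729, -0.153 and 0.0399 in their deviations from the group means, so they are not treated as pairs; with the replicate block the adjusted p was 0.0303 for Slc16a1, 0.105 for Slc16a9 and 0.102 for Slc16a10. Total counts shifted the median log2 fold change of all genes to -0.10, and the calls on the 8 carriers were the same. Depth limits Slc16a13, with 2 to 13 counts per library. The principal transcript length was an alternative chosen after seeing the data.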

Other observations

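Ratios of raw counts within a library do not depend on the scaling between libraries; these were chosen after the values were seen and have no test. Counts of Slc16a9 per count of Slc16a1 were 16.0, 10.6 and 14.9 in DHT replicates 1, 2 and 3, against 1.70, 1.99 and 2.59 in control replicates 1, 2 and 3. Slc5a8 per Slc5a12 was 1.79, 0.712 and 1.07 in DHT replicates 1, 2 and 3, against 0.141, 0.332 and 0.428 in control replicates 1, 2 and 3. Slc16a4 per Slc16a7 overlapped, at 0.497, 0.392 and 0.494 in DHT and 0.406, 0.701 and 0.400 in control replicates 1, 2 and 3.

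Bdh1, which interconverts the main ketone bodies, had 148, 79.4 and 146 CPM in DHT replicates 1, 2 and 3, against 46.7, 173 and 197 CPM in control replicates 1, 2 and 3. The lowest library was control replicate 1, the groups overlapped, and Bdh1 did not pass with edgeR (adjusted p = 0.882).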
